A study of Mus musculus with 18 samples.

Results

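The genes described here make cholesterol or control its supply in the cell, and their RNA was counted in mouse medial prefrontal cortex (strain C57BL6/J). The 30 genes were named as a list and found among the 54547 Ensembl gene identifiers of the deposited count tables by symbol. They comprise 19 enzymes of cholesterol synthesis, 5 genes that control the SREBP transcription factors, 3 genes of sterol transport, storage and breakdown, and 3 further genes known as SREBP targets. They were selected on their known roles and on the diet fold changes of these same libraries, in which a core of synthesis genes had been higher with PLX5622. The diet values below are therefore a description and carry no test over the list.

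The series holds 18 libraries from mice at postnatal day 100, each with a number in its title. In 9 the chow is labelled as control diet, and in the other 9 as containing PLX5622 at 1200 mg/kg, an inhibitor of the receptor CSF1R that microglia need to survive. One treatment text stands on all 18 libraries, controls included, and so does not show what each animal received. It gives PLX5622 for 21 days, then drinking of 15% ethanol on alternate days for 44 days, with tissue taken 24 hours after the last ethanol. Ethanol is thus part of the description of both groups and was not compared with water. The tissue is a whole homogenate, in which fewer cells of a type and less RNA per cell cannot be told apart.

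Cholesterol does not cross the blood-brain barrier in useful amounts, so brain cells build their own from acetyl-CoA through mevalonate, squalene and lanosterol. Astrocytes and oligodendrocytes are known as the main producers in the adult brain, and neurons dispose of the excess. When sterol in the endoplasmic reticulum is low, SCAP carries the SREBP precursors to the Golgi, where they are cut into active transcription factors that switch on nearly the whole synthesis pathway. When sterol is high, the INSIG proteins hold SCAP back. SREBP binds short sterol regulatory elements, usually beside sites for the factor NF-Y or for Sp family factors.

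Promoter sequences were read for these genes from the RefSeq table of build GRCm38.p6, from 250 bases before to 50 after each start, in which 26 of the 30 were found. Sqle, Fdft1, Stard4 and Fdps had no entry and were not searched. The 26 genes had 35 promoters, and a gene was counted if any of its promoters matched. The sterol element TCACNCCAC, searched on both strands, was found in Hmgcs1 and in no other of the 26 genes, against 1.41% of 17492 protein-coding genes. The related element TCACNCGAG was found in Srebf1, against 0.537% of them. That match precedes a start inside the gene's span (chromosome 11, 60199089 to 60222581, minus strand) and not its outermost one. A longer form of the first element, which TCACNCCAC overlaps, was found in none, against 0.08%. The NF-Y motif CCAAT was present in 23 of 26 (88.5%), against 42.3% of protein-coding genes. The GC box GGGCGG was present in 22 of 26 (84.6%), against 49.2%, and the E-box CACGTG in 6 of 26, against 8.91%. These are matches of letters and not shown sites of binding. The stretches below show the 2 sterol elements and, in 5 genes that the results turn on, the nearest CCAAT match before a start. CCAAT matches after the start are not shown. Stretches run 5′ to 3′ along the gene's strand, with the motif in capitals (ATTGG is CCAAT on the other strand).
Hmgcs1, sterol element, chr13:119690204-119690232, plus strand: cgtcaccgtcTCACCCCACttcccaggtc
Srebf1, sterol element, chr11:60210468-60210496, minus strand: ccatgtgcgcTCACCCGAGgggcggggca
Hmgcs1, NF-Y motif, chr13:119690294-119690322, plus strand: tccccgcctctcATTGGctgaaagcggat
Cyp51, NF-Y motif, chr5:4104710-4104738, minus strand: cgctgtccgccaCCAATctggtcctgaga
Msmo1, NF-Y motif, chr8:64733617-64733645, minus strand: gagtggggcggaCCAATtacgacaggcga
Insig1, NF-Y motif, chr5:28071184-28071212, plus strand: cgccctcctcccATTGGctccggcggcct
Srebf2, NF-Y motif, chr15:82147122-82147150, plus strand: cttcgcgcgccgATTGGctaatgcaagcc

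Libraries held 990136 to 1742680 counts, with 1384979 as the median, and a two-sided exact permutation test of the totals between diets gave p = 0.5802 (n = 9 each). The 28 members that could be tested ranged from 14.9 counts per library on average in Tm7sf2 to 284.8 in Hmgcs1. Control 3 stood apart within its group, with the lowest level of 9 of the 17 measurable synthesis enzymes. All 10 microglial markers fell in edgeR's quasi-likelihood test, where 0.353% of all genes were called lower, and their summed CPM (counts scaled to library size) ran from 328.8 to 464.2 in controls and from 75.1 to 144.5 with PLX5622. No marker of astrocytes, myelinating oligodendrocytes, their precursors, neurons or endothelial cells was called, and none of those genes was at 0 in all libraries. Of 5 choroid plexus markers 2 were tested and none was called, but Ttr, at 5.21 ± 3.2 CPM in controls and 15.2 ± 9.6 CPM with PLX5622 (SD, n = 9 each), had the largest positive log2 fold change of all tested genes, 1.49 ± 0.44 (SE, edgeR adjusted p = 0.28). The summed CPM of the choroid plexus list ran from 176.5 to 228.8 in controls and from 202.0 to 230.3 with PLX5622. Most of that sum was Enpp2, at a mean of 194.7 CPM in controls and 197.3 CPM with PLX5622, so it hardly reflects Ttr. Any part of choroid plexus RNA in the values of the synthesis genes was not tested. CPM here are adjusted by edgeR's trimmed mean of M-values, and fold changes are PLX5622 over control on the log2 scale with their standard error.

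Most synthesis enzymes had slightly higher mean levels with PLX5622. Of the 19 enzymes 17 had enough counts to be tested, and 16 of these had positive log2 fold changes (Ebp turned negative in 5 of 28 alternative settings and Tm7sf2 in 1), with a median of 0.22 and a range from -0.09 to 0.32, while the median over all 11051 genes tested was -0.0002. Of all 28 testable members 23 were positive, against 49.9% of all genes. None of the 28 testable members was called at an adjusted p under 0.05, where 0.398% of all genes were called. At an unadjusted p under 0.05 there were 11 of 28 by edgeR, against 6.81% of all genes by edgeR. Since the members were chosen with this comparison known, nothing is read from these counts. In no member did the diets separate without overlap, as they did in 0.199% of all genes. In 10 members at least 8 of the 9 PLX5622 libraries lay above the control median, against 7.71% of all genes.

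**Figure D1:**
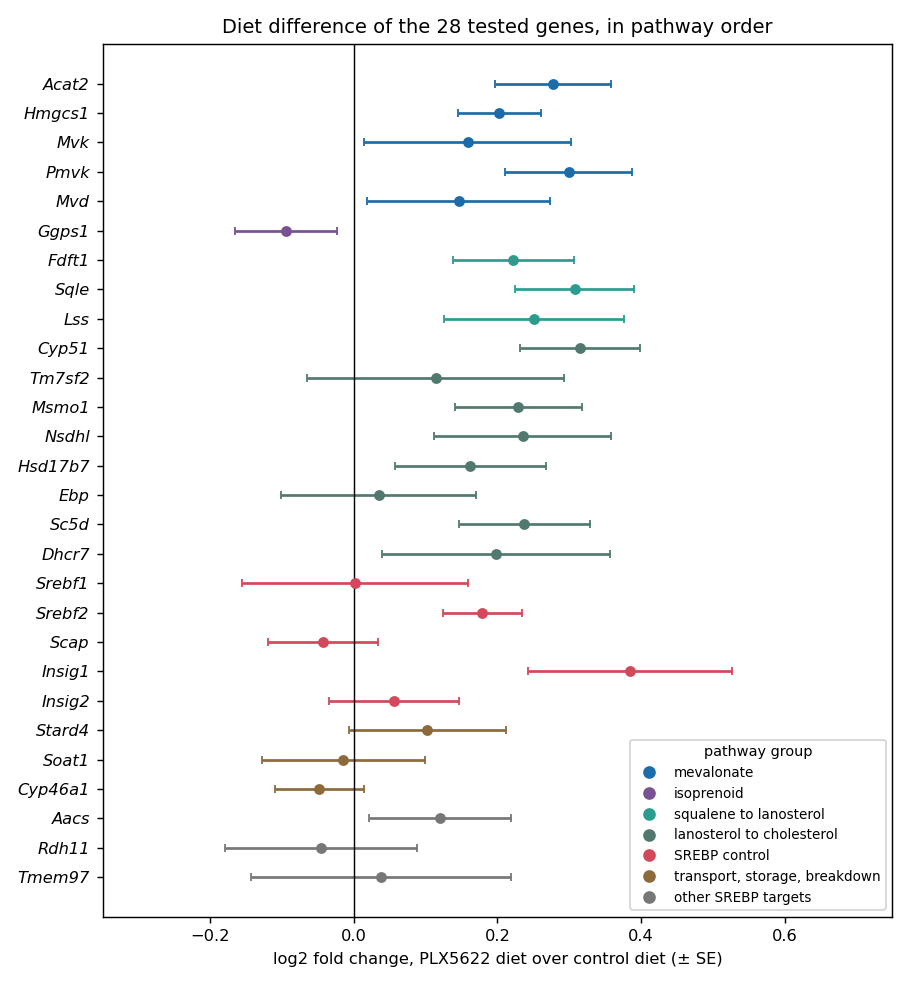
Log2 fold change of PLX5622 diet over control diet (x axis) with its standard error (bars) for each of the 28 tested genes (y axis, in pathway order, coloured by group), 9 libraries per diet. Every synthesis enzyme except Ggps1 lies above 0, Insig1 is the highest at 0.38, and Srebf1, Scap, Soat1 and Cyp46a1 lie within 0.05 of 0.

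The 5 enzymes of the mevalonate part of the pathway all had positive values, with a median of 0.20. Acat2, the cytosolic thiolase that joins 2 acetyl-CoA (chromosome 17, 12942890 to 12960747), ran from 46.4 to 63.1 CPM in controls (median 53.05) and from 59.0 to 72.2 CPM with PLX5622 (median 67.3). All 9 PLX5622 libraries lay above the control median and 5 above the highest control. Its log2 fold change was 0.28 ± 0.08 (SE), from 53.9 ± 5.7 to 65.4 ± 5.3 CPM (SD, n = 9 each). Hmgcs1, the HMG-CoA synthase of the cytosol (chromosome 13, 119690379 to 119708260), is the most counted of these 5. It ran from 142.3 to 214.6 CPM in controls (median 194.2) and from 196.9 to 256.0 CPM with PLX5622 (median 216.5). Again all 9 PLX5622 libraries exceeded the control median and 5 exceeded every control, at a log2 fold change of 0.20 ± 0.06. The lowest control value came from control 3, and without that library the log2 fold change of Hmgcs1 was 0.16. Pmvk, the phosphomevalonate kinase, ran from 37.04 to 52.26 CPM in controls (median 45.1) and from 47.2 to 62.9 CPM with PLX5622 (median 54.0). In Pmvk 6 PLX5622 libraries lay above every control and 7 controls below every PLX5622 library, at a log2 fold change of 0.30 ± 0.09. The kinase before it, Mvk, and the decarboxylase after it, Mvd, had smaller and less certain differences of 0.16 ± 0.14 and 0.15 ± 0.13, on 24.7 and 31.6 counts per library.

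The isoprenoid step between mevalonate and squalene could hardly be read. Fdps, farnesyl diphosphate synthase, had 0 counts in all 18 libraries, and 89.7% of its span is overlapped on its own strand by other gene models. Idi1, the isopentenyl diphosphate isomerase, had 47 counts over all 18 libraries and was not tested. The 0 counts of Fdps are thus no measure of its expression, since genes nested in another one on the same strand rarely had counts in these tables. Ggps1, which makes the geranylgeranyl diphosphate used to anchor proteins in membranes rather than sterol, was the one testable gene here and the one enzyme with a negative value. It ran from 78.8 to 102.0 CPM in controls (median 90.3) and from 71.7 to 96.3 CPM with PLX5622 (median 90.4). No PLX5622 library of Ggps1 exceeded the highest control, and the log2 fold change was -0.09 ± 0.07.

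The 3 enzymes that make squalene and close it into lanosterol had positive values, with a median of 0.25. Sqle, the squalene epoxidase and a main control point of the pathway (chromosome 15, 59315077 to 59331192), ran from 47.2 to 64.9 CPM in controls (median 61.9) and from 45.7 to 87.1 CPM with PLX5622 (median 73.2). In Sqle 8 PLX5622 libraries lay above every control, and PLX5622 28, the library with the fewest counts, lay below every control. The log2 fold change of Sqle was 0.31 ± 0.08. Fdft1, the squalene synthase, was at 0.22 ± 0.08 with 2 PLX5622 libraries above every control. Lss, the lanosterol synthase, was at 0.25 ± 0.13 with 1.

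All 8 enzymes from lanosterol to cholesterol had positive values, Ebp and Tm7sf2 with the exceptions given above, and the median was 0.21. Cyp51, the lanosterol demethylase (chromosome 5, 4081145 to 4104746), ran from 41.1 to 68.4 CPM in controls (median 61.7) and from 61.1 to 81.2 CPM with PLX5622 (median 73.1). In Cyp51 7 of the PLX5622 libraries exceeded every control. Its log2 fold change of 0.32 ± 0.08, a level 24.4% higher, came with the smallest adjusted p of all members, 0.076 by edgeR's quasi-likelihood test over all genes. Msmo1, a methylsterol monooxygenase of the later steps (chromosome 8, 64718139 to 64733792), ran from 61.6 to 116.0 CPM in controls (median 93.7) and from 91.3 to 135.4 CPM with PLX5622 (median 109.6). The diets overlapped widely in Msmo1, with 3 PLX5622 libraries above every control, at a log2 fold change of 0.23 ± 0.09. Control 3 held the lowest value, 61.6 CPM, while the next control was at 88.9 CPM, and the log2 fold change without it was 0.17. Sc5d, a sterol desaturase, and Nsdhl, a sterol dehydrogenase, were at 0.24 ± 0.09 and 0.24 ± 0.12. The reductase Dhcr7, which performs a final step, was at 0.20 ± 0.16 and the ketoreductase Hsd17b7 at 0.16 ± 0.10. The reductase Tm7sf2 and the isomerase Ebp were at 0.11 ± 0.18 and 0.03 ± 0.14, on 14.9 and 29.9 counts per library.

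**Figure D2:**
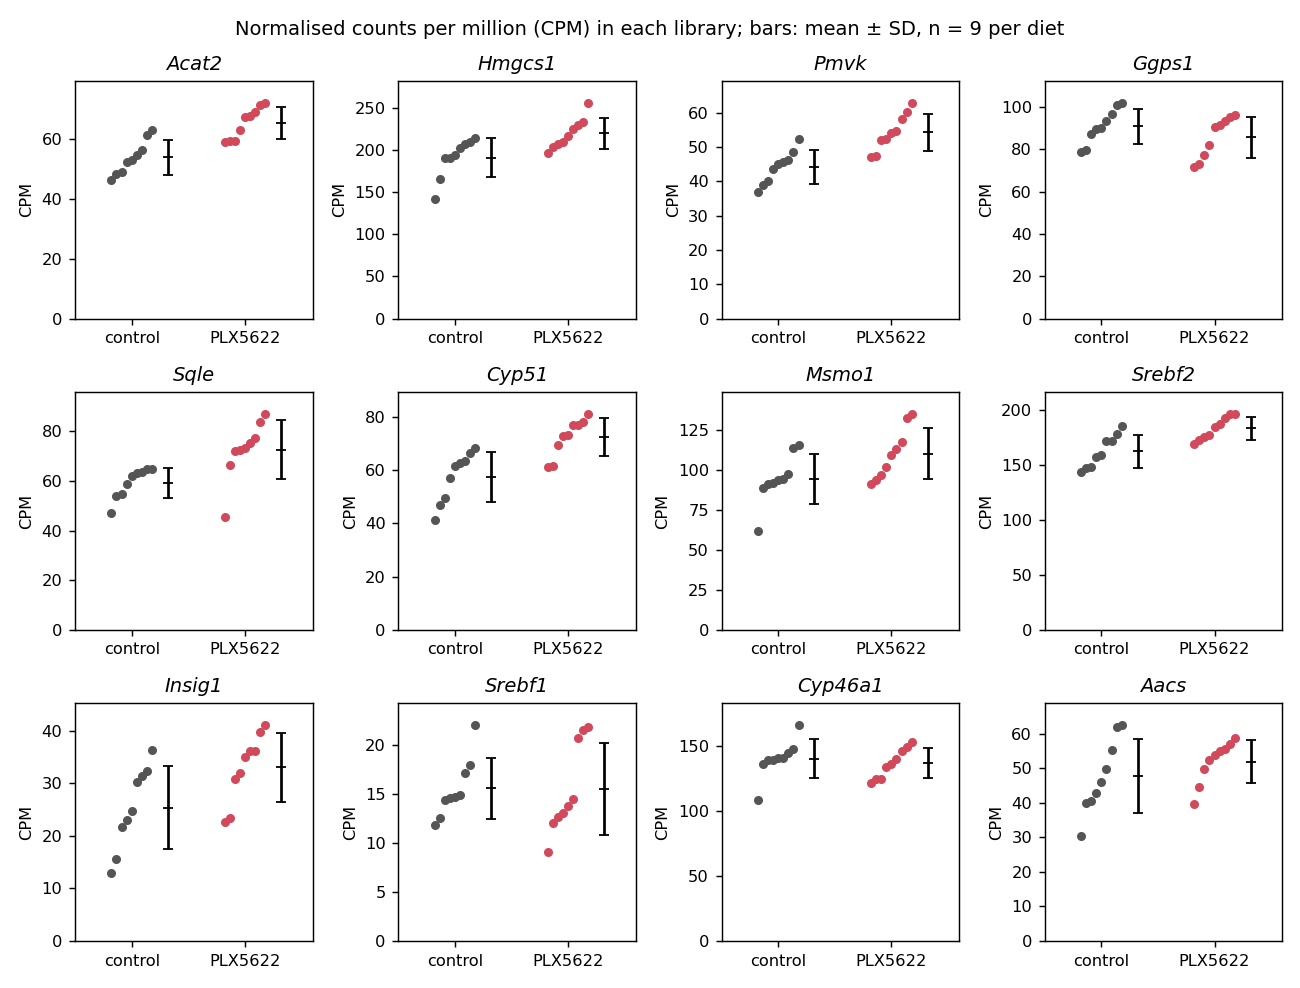
CPM (y axis, from 0) of 12 genes in each of the 9 control (grey) and 9 PLX5622 (red) libraries, sorted by value within a diet, with mean ± SD beside them. In Acat2, Hmgcs1, Pmvk and Srebf2 all 9 PLX5622 points lie above the control median, while in Ggps1, Srebf1 and Cyp46a1 the diets overlap widely.

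Among the genes that control the pathway, Srebf2 and Insig1 had the largest values and the other 3 lay near 0. Srebf2 encodes the SREBP that mainly drives cholesterol synthesis (chromosome 15, 82147181 to 82205379). It ran from 143.8 to 185.3 CPM in controls (median 158.6) and from 168.6 to 196.5 CPM with PLX5622 (median 184.2). All 9 PLX5622 libraries of Srebf2 lay above the control median and 4 above every control, at a log2 fold change of 0.18 ± 0.05. Insig1, which retains SCAP and is itself a classical SREBP target, had the largest difference of all members, 0.38 ± 0.14, a level 30.5% higher. It ran from 12.9 to 36.4 CPM in controls (median 24.8) and from 22.7 to 41.1 CPM with PLX5622 (median 35.0). The spread within each diet was wide in Insig1, so that 2 PLX5622 libraries exceeded every control, and without control 3 the log2 fold change was 0.30. Its sister Insig2, which is not driven by SREBP in the same way, was at 0.06 ± 0.09. Srebf1, whose main product serves fatty acid synthesis, was at 0.002 ± 0.16 with 15.6 ± 3.1 CPM in controls and 15.5 ± 4.7 CPM with PLX5622. Scap, the escort, was at -0.04 ± 0.08. The signs of Srebf1, Scap and Insig2 changed under other settings, in 12, 2 and 2 of the alternatives tried.

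Genes that move, store or break down cholesterol had values closer to 0. Cyp46a1, the hydroxylase by which neurons let cholesterol leave the brain (chromosome 12, 108334381 to 108362234), ran from 108.5 to 166.4 CPM in controls (median 140.6) and from 121.5 to 152.8 CPM with PLX5622 (median 136.4). No PLX5622 library of Cyp46a1 exceeded the highest control and 3 exceeded the control median, at a log2 fold change of -0.05 ± 0.06. Soat1, which esterifies cholesterol for storage, was at -0.01 ± 0.11, with the other sign in 8 of 28 alternatives. Stard4, a carrier of sterol through the cytosol and a known SREBP target, was at 0.10 ± 0.11. Aacs, the acetoacetyl-CoA synthetase that feeds ketone bodies into lipid synthesis, ran from 30.4 to 62.5 CPM in controls (median 45.9) and from 39.6 to 58.7 CPM with PLX5622 (median 53.7). The PLX5622 values of Aacs lay wholly inside the control range, and the log2 fold change was 0.12 ± 0.10. The retinol dehydrogenase gene Rdh11 and Tmem97, a sterol-responsive membrane protein, were at -0.05 ± 0.13 and 0.04 ± 0.18, with the other sign in 2 and 4 of 28 alternatives. Over the 11 members other than synthesis enzymes the median was 0.04, against 0.22 for the enzymes. The difference between these medians was not tested. It cannot be read apart from the choice of genes, since a core of synthesis genes was chosen for being higher in these libraries.

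The enzymes can be set side by side in each library by summing their CPM. The 17 testable enzymes summed to 703.1 to 955.3 CPM in controls (median 914.1) and to 925.8 to 1100.3 CPM with PLX5622 (median 1036.3). Of the controls 8 lay between 822.0 and 955.3 CPM and control 3 at 703.1 CPM. Without control 3 the control mean was 902.1 CPM, against 1012.4 CPM with PLX5622. Levels of different genes were not compared with each other, since CPM do not allow for gene length.

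Markers of the cell types that make cholesterol were close between the diets. The 10 astrocyte markers, from Aqp4 to Ntsr2, summed to 3549 to 3983 CPM in controls and to 3608 to 4104 CPM with PLX5622, with a median log2 fold change of 0.09, 9 of 10 positive and none called. The 10 markers of myelinating oligodendrocytes summed to 1363 to 2029 CPM and to 1163 to 2359 CPM, with a median of 0.04 and none called. With the mean levels of both marker lists as covariates the log2 fold change was 0.31 ± 0.09 for Acat2, 0.27 ± 0.10 for Pmvk and 0.26 ± 0.10 for Cyp51. It was 0.24 ± 0.09 for Sqle, 0.20 ± 0.06 for Srebf2, 0.18 ± 0.07 for Hmgcs1 and 0.16 ± 0.10 for Msmo1. The edgeR adjusted p of each of these was larger than without the covariates. It was 0.54 against 0.076 for Cyp51, 0.61 against 0.089 for Sqle and 0.90 against 0.54 for Msmo1. In that fit 19 of the 28 members were positive, and the small differences of Tm7sf2, Ebp, Insig2, Tmem97 and Srebf1 were at -0.04, -0.05, -0.03, -0.07 and -0.03. Oligodendrocyte precursor markers, which were not among the covariates, summed to 440.7 to 584.5 CPM in controls and to 456.6 to 566.3 CPM with PLX5622. Of these 10 markers 8 were positive and 2 negative, with a median of 0.08 and none called. The largest were Olig2 at 0.49 ± 0.19 and Cacng4 at 0.32 ± 0.11 (edgeR adjusted p = 0.51 and 0.31). Immediate-early genes, which report neuronal activity, differed more, with all 10 tested genes positive, a median of 0.60 and 2 called higher, beside 0.0452% of all genes called higher. Their sums ran from 309.0 to 514.3 CPM in controls and from 399.9 to 769.9 CPM with PLX5622, and Egr2 of that list was at 0 in all libraries. Any part of these genes, of the cell types above or of the loss of microglial RNA in the values of the synthesis enzymes was not tested.

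Genes next to the pathway were described with lists written for the purpose. Of 14 genes of fatty acid synthesis all were tested, 12 were positive and 1, Thrsp, was called higher, at 0.71 ± 0.17 (edgeR adjusted p = 0.023), beside the same 0.0452% of all genes. Thrsp is a regulator of lipid synthesis, and Acss2, which activates acetate to acetyl-CoA, was at 0.21 ± 0.08. The median of that list was 0.09. Of 9 genes that cut SREBP or degrade sterol-regulated proteins 8 were tested and none was called, with a median of -0.04, the ubiquitin ligase gene Syvn1 at 0.15 ± 0.12 and the protease gene Mbtps1 at -0.09 ± 0.09. Of 11 genes that draw on mevalonate products for prenylation, dolichol or ubiquinone none was called, with a median of 0.02, Rabggtb at 0.20 ± 0.09 and Coq2 at 0.10 ± 0.07. Of 10 genes of sterol efflux and the LXR receptors 8 were tested and none was called, with a median of 0.001, the sterol transporter gene Abcg1 at -0.17 ± 0.09 and the phospholipid enzyme gene Lpcat3 at 0.17 ± 0.11.

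Within a diet the libraries also differ among themselves. This variation is not independent of the choice of genes, since the same libraries gave the diet difference by which they were chosen. It was described by Pearson correlations of log2 CPM across the 18 libraries after subtracting each diet's mean, for the 26 members with at least 20 counts per library on average. The points share library depth and the composition of each library, and no p is given. The median over the 120 pairs of 16 enzymes was 0.14, with 66.7% of pairs positive, while the median over all pairs of the 9163 genes with as many counts was -0.0007. Over the 45 pairs of the 10 other members the median was -0.02. The highest pair was Hmgcs1 with Insig1, at 0.85 within diets, 0.93 in the controls alone and 0.64 in PLX5622 alone. With PLX5622 alone Cyp51 was at 0.34 with Hmgcs1, against 0.84 in controls, and at -0.25 with Sc5d, against 0.75. For Hmgcs1 with Insig1, without control 3 and control 8, the libraries farthest from the median of Hmgcs1, the value was 0.66. Hmgcs1 with Msmo1 followed at 0.76, and Msmo1 with Insig1 and with Sc5d at 0.74 and 0.73. Control 3 bore on these values: without it Hmgcs1 with Insig1 was at 0.77, the other pairs at 0.55, 0.59 and 0.44, and the median over the enzyme pairs at 0.09.

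**Figure D3:**
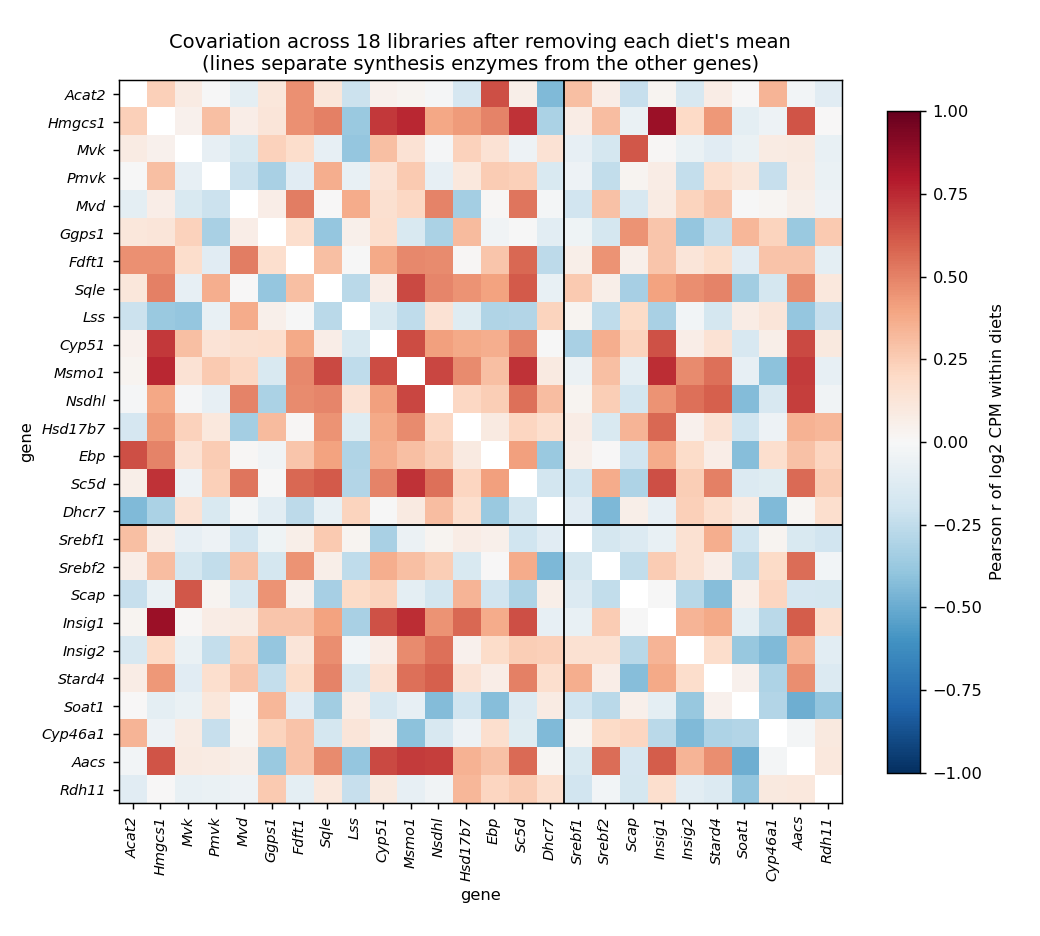
Pearson correlation of log2 CPM (colour) for each pair of the 26 genes with at least 20 counts per library on average, across 18 libraries with each diet's mean removed, with lines between synthesis enzymes and other genes. Hmgcs1, Cyp51, Msmo1, Nsdhl and Sc5d are positive with each other and with Insig1 and Aacs over both diets, though with PLX5622 alone Cyp51 is at -0.25 with Sc5d, -0.10 with Nsdhl, 0.02 with Insig1 and 0.006 with Aacs. Lss, Dhcr7, Soat1 and Cyp46a1 stand outside it.

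Against the mean of the other enzymes, the highest members were Msmo1 at 0.78, Nsdhl at 0.69, Sc5d at 0.67, Insig1 at 0.65, Hmgcs1 at 0.62, Cyp51 at 0.61 and Aacs at 0.57. Without control 3 Msmo1 was at 0.65, Nsdhl at 0.61, Sc5d at 0.46, Insig1 at 0.46, Hmgcs1 at 0.38, Cyp51 at 0.41 and Aacs at 0.33. Of the members that are not enzymes, Insig1 was the highest with control 3 included and Insig2 without it, at 0.51 against 0.34 with it. The diets also differed in these values, which was not tested: Cyp51 was at 0.77 in controls and 0.27 with PLX5622, Aacs at 0.73 and 0.20, Insig1 at 0.57 and 0.83, and Msmo1 at 0.75 and 0.84. Srebf2 was at 0.10 by the same measure, Acat2 at 0.09, Pmvk at 0.08, Cyp46a1 at -0.11, Lss at -0.21 and Soat1 at -0.23, and without control 3 Srebf2 was at -0.21, Pmvk at -0.13 and Lss at -0.05. Acat2 and Pmvk, among the members with the largest diet differences, were thus low by this measure. The mean of the enzymes was at 0.54 with the mean of the fatty acid synthesis genes, 0.21 in controls and 0.95 with PLX5622, a difference that was not tested. With the immediate-early genes it was at 0.43, with the astrocyte markers at 0.19, with the microglial markers at -0.23 and with the endothelial markers at -0.59. Without control 3 these were at 0.39 for fatty acid synthesis, 0.31, 0.45, 0.05 and -0.33, so only the fatty acid, immediate-early, astrocyte and endothelial values kept their sign.

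**Figure D4:**
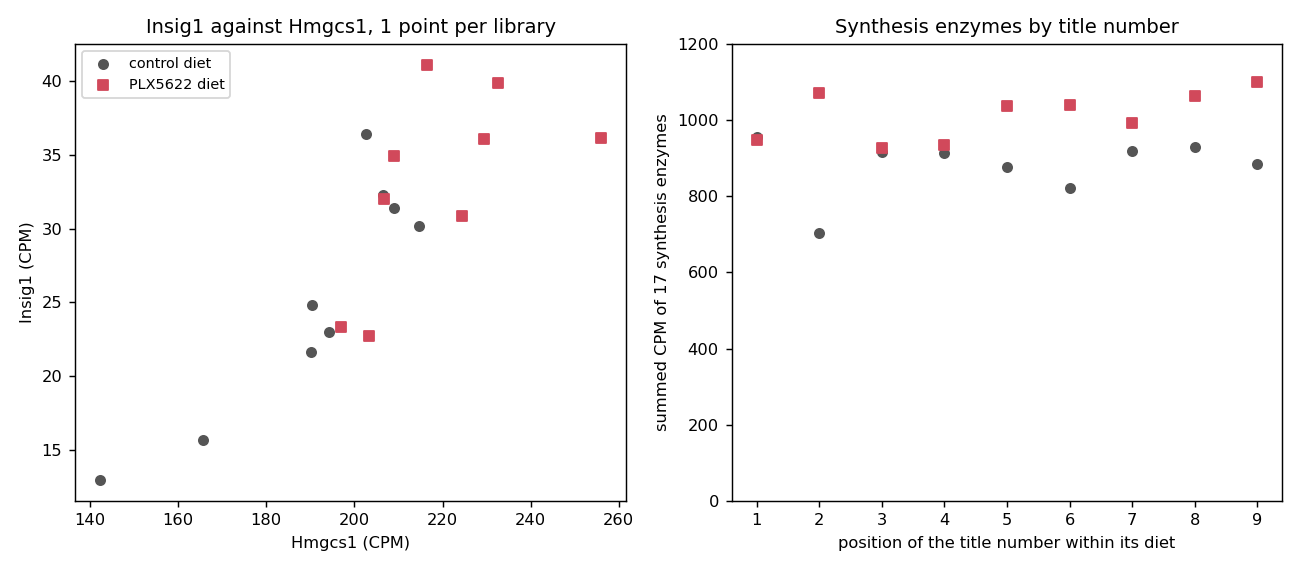
Left, CPM of Insig1 (y axis) against CPM of Hmgcs1 (x axis) in each library, control diet as grey circles and PLX5622 diet as red squares; right, summed CPM of the 17 synthesis enzymes (y axis, from 0) against the position, by diet, of the number in the title. Libraries with more Hmgcs1 have more Insig1 in both diets, and control 3 is the lowest point in both plots.

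The numbers in the titles give a comparison within diets, since controls are numbered from 2 to 11 and PLX5622 libraries from 25 to 35. What the numbers stand for is not stated, and as they do not overlap, diet cannot be told apart from whatever they mark. A slope on the position of the number within its diet, from 1 to 9, was fitted together with diet. No member was called (edgeR adjusted p from 0.23 to 0.99), where 0.308% of all genes were, and 3 of 28 members had an unadjusted p under 0.05, against 9.26% of all genes. DESeq2 and limma-voom called no member either, where they called 22 and 45 of all genes. The largest slopes per position were 0.05 ± 0.02 in Insig1, 0.04 ± 0.01 in Msmo1, 0.04 ± 0.03 in Tmem97, 0.04 ± 0.02 in Aacs and -0.04 ± 0.02 in Rdh11 (log2, SE). Tmem97 ran from 7.61 to 15.6 CPM in controls and from 5.48 to 16.8 CPM with PLX5622, and Rdh11 from 17.1 to 26.2 CPM and from 13.4 to 25.3 CPM. In the same model 21 of 28 members had positive slopes, against 50.2% of all genes, with a median of 0.015, and the sign of Ggps1 changed in 11 of 29 alternatives. By the same test 5 of 10 tested immediate-early genes were called on position, among them Arc at 0.18 ± 0.02. Position runs from 1 to 9 in both diets, so adding it could hardly move the diet values, whatever the numbers mark. In that fit Insig1 was at 0.39, Cyp51 at 0.32 and Sqle at 0.31, and Cyp51 passed (edgeR adjusted p = 0.045). No member was called for a difference between the diets in the slope (adjusted p from 0.99 to 1.00, 0% of all genes called), with Aacs at -0.08 ± 0.03 and Srebf2 at -0.05 ± 0.02 the 2 with an unadjusted p under 0.05, against 4.55% of all genes.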

How the data were processed

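Each library has 1 table of raw counts per Ensembl gene, which the authors deposited; sequencing was single-end, per the labels' protocols. As tools the submitters' processing notes list HTSeq 0.11.0, Bowtie2 2.3.4.3, R 3.5.1, DESeq2 1.10.1 and FastQC 0.11.8, with mm10 and GRCm38.p6 as builds. Roles, strand setting and counted feature were not given in the sources used here. A protein-coding gene nested within a same-strand gene had counts in 7 of 456 cases, against 537 of 818 where the enclosing gene was only on the opposite strand.

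Identifiers were matched without version to GENCODE M21 (GRCm38), 53620 of 54547, the rest holding 0.047% of counts. The test across genes was that of edgeR 4.0.16 under R 4.3.3, with filterByExpr (minimum count 10, total 15), TMM scaling, robust quasi-likelihood fit, Benjamini-Hochberg adjustment over all 11051 genes, threshold 0.05. SE is the log2 fold change over the square root of F. Log2 CPM carry a prior count of 2. Total counts were compared over all 48620 assignments. DESeq2 1.42.0, limma-voom (limma 3.58.1), other scalings and filters, thinning, covariates, 1 surrogate variable (sva 3.50.0) and leaving out each library were alternatives. The fits were also run on simulated data with planted differences. How many of these were recovered is not given here, so that run does not show which sizes of difference could be called. No libraries agree within sampling noise (lowest chi-square per degree of freedom 1.129).

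The members, lists and rules were chosen with earlier results of these data known. All 30 members are named. Values by library are given for the most counted tested member of each group and for the 5 with the largest diet difference and the 5 with the largest slope among members with a mean of at least 10 counts; of neighbouring lists, the 2 genes with the smallest p and any called. Fdft1, Srebf1 and other members outside this rule are given by summaries. That each number is a separate animal is not stated, so p-values measure the spread between these libraries, which may be technical.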

Additional observations from a re-analysis of the deposited data

Results flagged for a closer look

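In 5 of 58 groups of 9 libraries the highest or lowest library lay far from the rest by Dixon's criterion, which chance alone meets in about 1 of 20 groups. Msmo1 in control 3 was at 61.64 CPM, with the next control at 88.9 CPM. Hsd17b7 in control 4 was at 34.05 CPM, with the next highest control at 29.5 CPM. Insig2 in control 10 was at 61.27 CPM, with the next at 50.7 CPM. Among the PLX5622 libraries Mvd in library 34 was at 32.05 CPM, with the next at 24.7 CPM, and Sqle in library 28, the smallest library, was at 45.66 CPM, with the next lowest at 66.4 CPM. Without PLX5622 28 the log2 fold change of Sqle was 0.36 and passed the edgeR threshold.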

How the results depend on the processing

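No paired analysis was possible because the diets share no replicate number. Of 29 alternatives for diet, the log2 fold changes of the members moved by less than 1 SD between replicates in each one run. That limit is wide and says little about stability, since the SD can exceed the difference itself. In Insig1 the SD was 0.39 against a difference of 0.38, and Insig2 went from 0.06 to -0.13 on thinning within it. The median of the members stayed between 0.147 and 0.181 without 1 library, with 21 to 24 of 28 positive, and 12 of the 15 left at a mean of at least 50 counts were positive. Members called for diet were 0 as reported, 3 with no count filter (Cyp51, Sqle and Hmgcs1), 1 with position as covariate (Cyp51), 2 at an adjusted p under 0.10, and 0 to 1 without 1 library: Cyp51 without control 9, control 10, PLX5622 25 or PLX5622 32, and Sqle without PLX5622 28. All genes called for diet were 44 as reported, 72 with DESeq2, 112 with no count filter, 8 at a mean of at least 50 counts, 29 at an adjusted p under 0.01 and 40 to 56 without 1 library. All genes called on the slope were 34 as reported, 22 with DESeq2, 74 with no filter, 20 at a mean of at least 50 counts, 4 within controls alone, 19 at an adjusted p under 0.01 and 18 to 79 without 1 library (79 without control 9, 18 without PLX5622 25); no member was called in any of these, 11 of 15 had positive slopes at a mean of at least 50 counts, and the cause of these differences was not tested. Depth limits the least counted members, such as Tm7sf2 and Tmem97 at 14.9 and 15.2 counts per library.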
